A study of Homo sapiens with 8 samples.

Results

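The 9 genes described here code for the type I interferon signalling chain and its transcription factors. They are the receptor chains IFNAR1 and IFNAR2, the kinases JAK1 and TYK2, the ISGF3 subunits STAT2 and IRF9, the interferon regulatory factors IRF1 and IRF7, and the inhibitor SOCS1. They were found by name among the 36337 gene names of the array. IRF9 was selected on its measured fall after NU6102 treatment, and the others were added as its pathway, so the comparison of WT+NU6102 with WT is given below as a description, without p-values. All 4 groups derive from HCT-116, a cell line from a human colorectal carcinoma, with 2 arrays per group from biological replicates. WT cells were the untreated parental line and WT+NU6102 cells were the same line after 24 h in 20 µM NU6102, an inhibitor of CDK1 and CDK2. CDK2-/- cells were an untreated knockout of the CDK2 gene, and R50 cells were a resistant line kept in 50 µM NU6102. The dose of R50 thus differs from that of WT+NU6102, and the sources used here do not say whether the inhibitor was present when R50 RNA was taken. Parental and knockout lines were purchased, whereas R50 was grown by the study from colonies resistant to that dose, and whether it is 1 clone is not given in the sources used here. The labels name no vehicle for the untreated cells.

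Interferons α and β bind the receptor pair IFNAR1 and IFNAR2. TYK2, bound to IFNAR1, and JAK1, bound to IFNAR2, then phosphorylate STAT2, which binds IRF9 in the complex ISGF3. In the nucleus ISGF3 binds the interferon-stimulated response element (ISRE) in the promoters of interferon-stimulated genes. Another element of such promoters is the gamma-activated site (GAS), which STAT dimers bind. Epithelial cells respond in the same way to interferon λ through a receptor of their own. IRF9, STAT2 and IRF7 are themselves interferon-stimulated genes, and SOCS1 is induced by the pathway and inhibits its kinases.

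Signal was read from 60-base probes, 1 spot per member probe, as log2 of the background-subtracted intensity less the 75th percentile of the array, so that 0 is the 75th percentile. The members had 11 probes, of which 10 were well above background on all 8 arrays. The last, an IFNAR2 probe for another transcript, was above background on 4 arrays and was not tested. In all, 28677 probes of 21595 gene names were tested together. CDK2-/- and R50 arrays lay on slide 1 and WT and WT+NU6102 arrays on slide 2. The NU6102 effect on WT cells and the contrast of R50 with CDK2-/- were thus measured within a slide, and elsewhere slide and group cannot be told apart. Duplicates correlated over the tested probes with r between 0.994 and 0.996. The CDK2 probe read -0.76 on both WT arrays and -1.56 and -1.51 on the CDK2-/- arrays, a log2 fold change of -0.77 (SE 0.0443, adjusted p = 0.000268). Of 10 colorectal epithelial markers 7 were well above background on both arrays of every group, among them EPCAM, CDH1 and KRT8, but CDH17, CEACAM5 and VIL1 were not. In RNA from whole cultures, fewer cells expressing a gene and less RNA per cell cannot be told apart.

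Promoter sequence was taken from RefSeq, from 250 bases before to 50 bases after each gene start on GRCh38.p14, for the 7 members with an entry (IRF7 and IFNAR2 have none). Those of STAT2, IRF9 and IRF1, which had lower signal in CDK2-/- and WT+NU6102 cells than in WT cells, and of SOCS1, which had higher signal there, are shown with matches to an ISRE core or a GAS in capitals. The ISRE core was searched as GAAANNGAAA on both strands and the GAS as TTCNNNGAA, which reads the same on both.
STAT2, chr12:56360058-56360357, minus strand: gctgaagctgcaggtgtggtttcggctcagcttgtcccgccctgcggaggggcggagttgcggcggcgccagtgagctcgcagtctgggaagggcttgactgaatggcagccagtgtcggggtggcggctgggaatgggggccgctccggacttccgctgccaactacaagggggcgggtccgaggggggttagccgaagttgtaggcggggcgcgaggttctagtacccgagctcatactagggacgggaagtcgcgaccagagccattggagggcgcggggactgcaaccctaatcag
IRF9, chr14:24161015-24161314, plus strand: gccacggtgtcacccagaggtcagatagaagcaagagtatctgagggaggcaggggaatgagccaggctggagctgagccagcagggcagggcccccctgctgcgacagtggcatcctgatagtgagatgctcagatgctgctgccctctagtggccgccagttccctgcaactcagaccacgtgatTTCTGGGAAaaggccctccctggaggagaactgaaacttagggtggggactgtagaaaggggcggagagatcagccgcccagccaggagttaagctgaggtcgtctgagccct
IRF1, chr5:132490724-132491023, minus strand: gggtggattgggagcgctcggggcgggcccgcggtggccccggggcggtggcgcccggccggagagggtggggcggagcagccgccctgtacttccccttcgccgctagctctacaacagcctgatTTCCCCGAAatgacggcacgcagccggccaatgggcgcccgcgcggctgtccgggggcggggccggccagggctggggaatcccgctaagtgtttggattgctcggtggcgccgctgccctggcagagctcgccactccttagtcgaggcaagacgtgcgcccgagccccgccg
SOCS1, chr16:11256155-11256454, minus strand: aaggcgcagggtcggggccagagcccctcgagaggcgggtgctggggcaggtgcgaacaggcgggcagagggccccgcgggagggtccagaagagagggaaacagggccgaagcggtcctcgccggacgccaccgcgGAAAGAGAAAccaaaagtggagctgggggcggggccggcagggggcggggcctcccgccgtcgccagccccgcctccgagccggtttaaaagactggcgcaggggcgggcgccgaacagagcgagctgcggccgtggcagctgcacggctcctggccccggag
IRF9 and IRF1 each held 1 GAS match, TTCTGGGAA starting at base -63 and TTCCCCGAA starting at base -124 from the gene start. SOCS1 held 1 ISRE core match, GAAAGAGAAA, starting at base -113. STAT2, the 3 windows of JAK1, the 2 windows of IFNAR1 and the window of TYK2 held neither. Of all 35114 promoter windows of this length, 3.57% held the ISRE core and 7.66% the GAS. A match describes the letters of the window and is not a measured binding site.

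STAT2 and IRF9, the ISGF3 subunits among the members, were both high in WT and R50 cells and lower in WT+NU6102 and CDK2-/- cells, and the larger differences were those of IRF9. The IRF9 probe (chromosome 14, 24635500 to 24635559, hg19, plus strand) read 1.95 and 1.91 in WT, -1.76 and -2.00 in WT+NU6102, -0.66 and -0.60 in CDK2-/- and 1.69 and 1.71 in R50 cells. No group overlapped another. The order was WT, R50, CDK2-/- and WT+NU6102, from high to low, with the smallest step from WT to R50. In WT+NU6102 the difference from WT was -3.81 on the log2 scale (SE 0.0861), 14.1-fold, which is the value that IRF9 was chosen for. IRF9 was 5.90-fold lower in CDK2-/- than in WT cells (log2 fold change -2.56, SE 0.0861, adjusted p = 5.69e-05), in a comparison that shares the WT arrays with the one that chose it. The difference in means between R50 and CDK2-/- uses no array of that comparison, and IRF9 was 5.04-fold higher in R50 (log2 fold change 2.33, SE 0.0861, adjusted p = 7.15e-05). This SE and adjusted p come from the fit of all groups, so their spread also rests on the WT and WT+NU6102 arrays. The test is thus not fully independent of the comparison that chose IRF9. Against WT, the R50 value of -0.23 did not pass (adjusted p = 0.118, 95% interval -0.44 to -0.01). It passed in 3 of 17 other settings, with a trended prior (0.0493) and without either WT+NU6102 array (0.0466 in both), and the adjusted p reached 0.307 among the others.

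STAT2, the STAT that tethers IRF9 in the complex, was measured by a probe on chromosome 12 (56735384 to 56735443, hg19, minus strand). It read 2.77 and 2.69 in WT, 1.62 and 1.58 in WT+NU6102, 2.26 and 2.24 in CDK2-/- and 2.77 and 2.70 in R50 cells. WT and R50 arrays overlapped, and both lay above CDK2-/-, which lay above WT+NU6102. The difference of WT+NU6102 from WT was -1.13 (SE 0.0526). STAT2 was 1.40-fold lower in CDK2-/- than in WT cells (log2 fold change -0.48, adjusted p = 0.00209) and 1.40-fold higher in R50 than in CDK2-/- cells (log2 fold change 0.49, adjusted p = 0.00176). Between R50 and WT the difference was 0.00, with a 95% interval from -0.13 to 0.13.

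**Figure D1:**
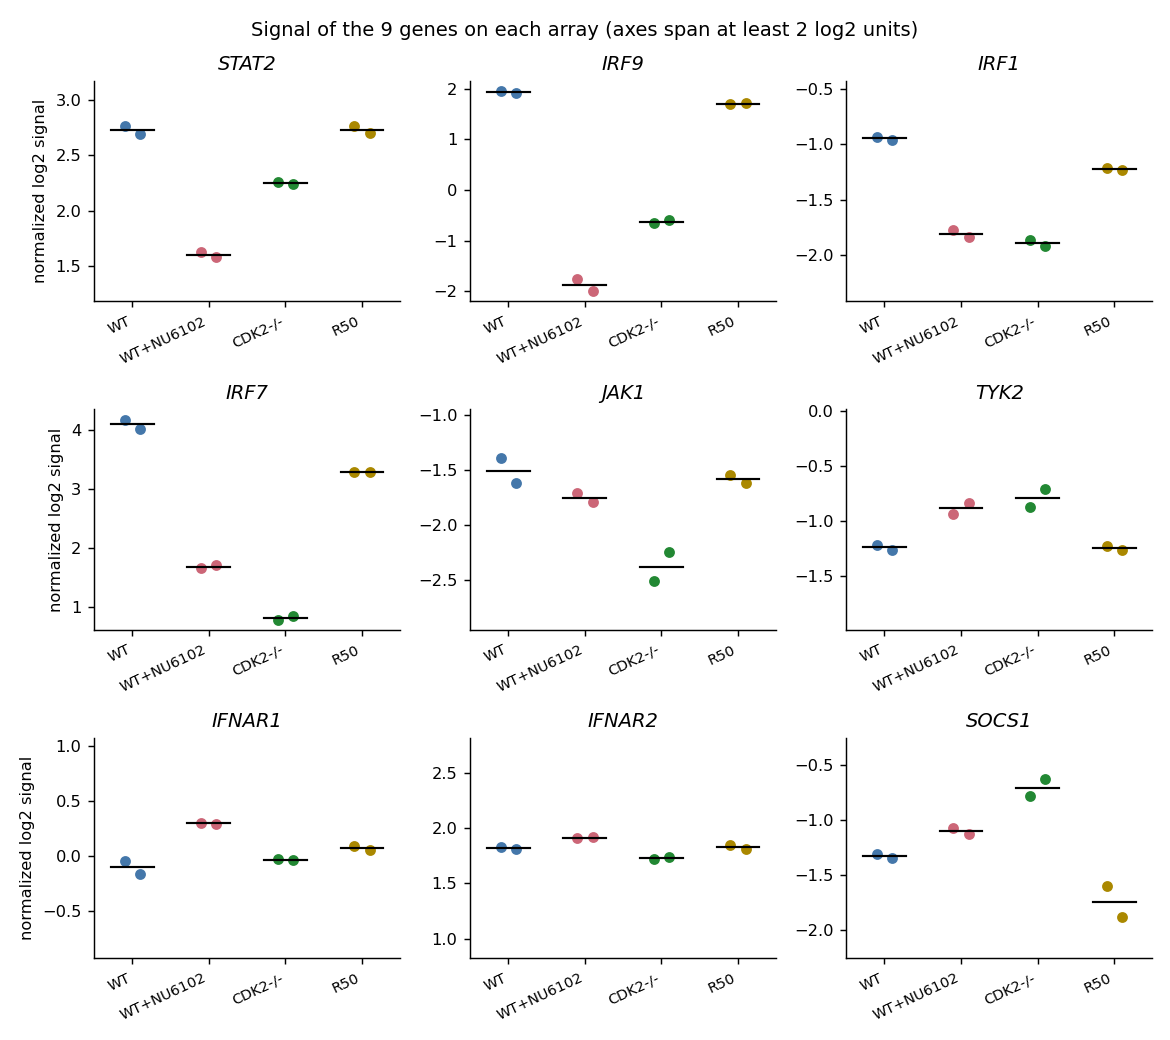
Normalized log2 signal (vertical axis) of the 9 members by group (horizontal axis), with a point for each of the 2 arrays and a line at their mean. STAT2, IRF9, IRF1 and IRF7 are high in WT and R50 and low in WT+NU6102 and CDK2-/- cells, whereas IFNAR1 and IFNAR2 stay within narrow ranges.

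IRF7, the factor that amplifies interferon gene transcription, and IRF1, a factor that interferons induce, were also lower in WT+NU6102 and CDK2-/- cells. The IRF7 probe (chromosome 11, 612643 to 612702, hg19, minus strand) has the following 60 letters, shown because IRF7 differed most of all members between CDK2-/- and WT cells.
IRF7 probe: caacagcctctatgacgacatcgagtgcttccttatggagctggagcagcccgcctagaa
IRF7 read 4.17 and 4.01 in WT, 1.65 and 1.71 in WT+NU6102, 0.78 and 0.85 in CDK2-/- and 3.28 on both R50 arrays. No group overlapped another, and CDK2-/- cells were lowest. The difference of WT+NU6102 from WT was -2.41 (SE 0.0693). IRF7 was 9.67-fold lower in CDK2-/- than in WT cells (log2 fold change -3.27, SE 0.0693, adjusted p = 1.72e-05). It was 5.50-fold higher in R50 than in CDK2-/- cells (log2 fold change 2.46, SE 0.0693, adjusted p = 3.32e-05) and lower in R50 than in WT (log2 fold change -0.81, adjusted p = 0.00187).

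The IRF1 probe lies on chromosome 5 (131819442 to 131819501, hg19, minus strand). It read -0.93 and -0.96 in WT, -1.78 and -1.84 in WT+NU6102, -1.87 and -1.92 in CDK2-/- and -1.21 and -1.23 in R50 cells. WT was highest, then R50, and the other groups lay close together at the bottom. CDK2-/- and WT+NU6102 did not differ past the threshold (log2 fold change -0.09, adjusted p = 0.19), but did with quantile normalization (-0.20, adjusted p = 0.0161). The difference of WT+NU6102 from WT was -0.87 (SE 0.0482). IRF1 was 1.93-fold lower in CDK2-/- than in WT (log2 fold change -0.95, adjusted p = 0.000193) and 1.60-fold higher in R50 than in CDK2-/- (log2 fold change 0.68, adjusted p = 0.000457). R50 was lower than WT (log2 fold change -0.27, adjusted p = 0.0154), a call lost in 6 of 17 other settings. These include the fits without WT replicate 1 (adjusted p = 0.0772), WT replicate 2 (0.0618), R50 replicate 1 (0.0594) or R50 replicate 2 (0.0633).

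The kinases differed from WT in opposite directions in CDK2-/- cells. JAK1, the kinase of IFNAR2 (probe on chromosome 1, 65299773 to 65299832, hg19, minus strand), read -1.39 and -1.62 in WT, -1.71 and -1.79 in WT+NU6102, -2.51 and -2.24 in CDK2-/- and -1.54 and -1.62 in R50 cells. CDK2-/- arrays lay below all others, and WT and R50 overlapped. JAK1 was 1.82-fold lower in CDK2-/- than in WT (log2 fold change -0.87, SE 0.119, adjusted p = 0.00453) and 1.73-fold higher in R50 than in CDK2-/- (log2 fold change 0.79, adjusted p = 0.00533). R50 minus WT was -0.07, with a 95% interval from -0.37 to 0.22, and WT+NU6102 minus WT was -0.25 (SE 0.119).

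TYK2, the kinase of IFNAR1, had higher signal in CDK2-/- than in WT cells. Its probe, shown because its direction opposes that of JAK1, maps to 337 bases on the minus strand of chromosome 19 (10464877 to 10465213, hg19), so its 60 letters come from more than 1 exon.
TYK2 probe: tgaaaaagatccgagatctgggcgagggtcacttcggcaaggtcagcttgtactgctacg
TYK2 read -1.21 and -1.26 in WT, -0.93 and -0.83 in WT+NU6102, -0.87 and -0.71 in CDK2-/- and -1.22 and -1.26 in R50 cells. The arrays fell into a lower pair of groups, WT and R50, and a higher pair, WT+NU6102 and CDK2-/-, with overlap inside each pair. TYK2 was 1.36-fold higher in CDK2-/- than in WT (log2 fold change 0.44, adjusted p = 0.00755) and lower in R50 than in CDK2-/- (log2 fold change -0.45, adjusted p = 0.00628). R50 minus WT was -0.01, with a 95% interval from -0.18 to 0.17, and WT+NU6102 minus WT was 0.35 (SE 0.0713).

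**Figure D2:**
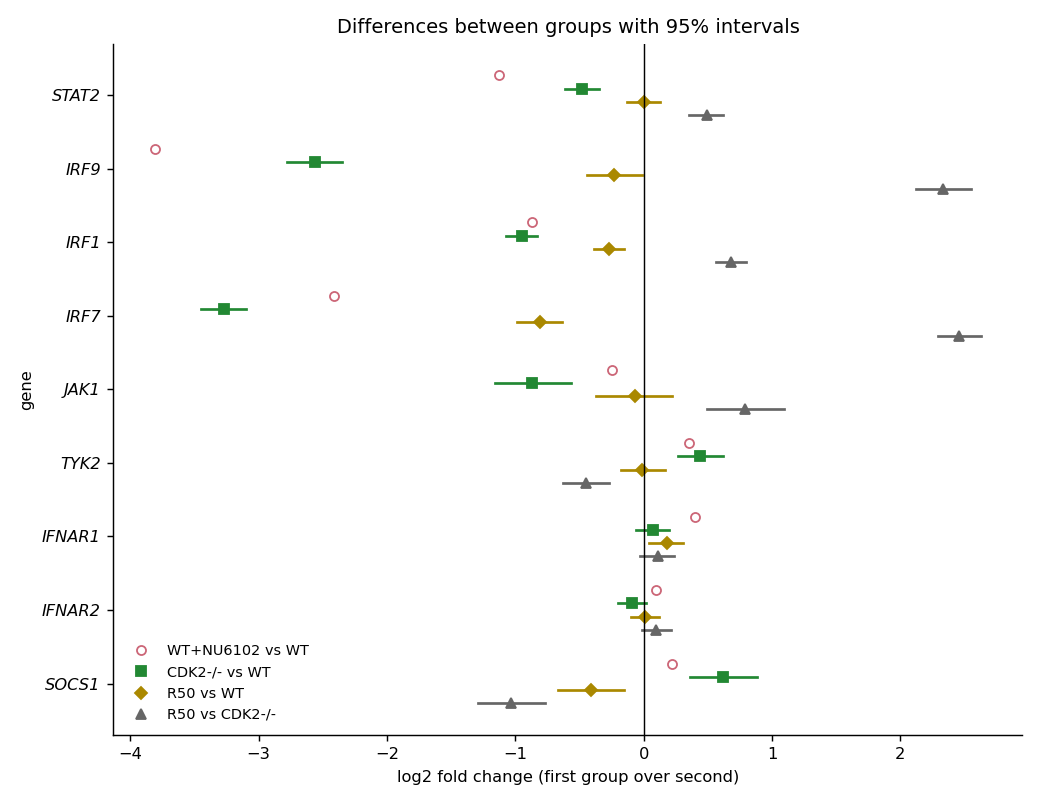
Log2 fold change (horizontal axis) of each member (vertical axis) in 4 comparisons. Filled symbols carry the 95% interval of limma's fit, and open circles are the comparison that chose IRF9, without an interval. R50 against WT (diamonds) lies near 0 for STAT2, JAK1, TYK2 and IFNAR2, while R50 against CDK2-/- (triangles) is highest for IRF7, at 2.46, and IRF9, at 2.33.

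By their brightest probes, neither receptor chain was called in CDK2-/- or R50 cells against WT. IFNAR1 (probe on chromosome 21, 34732064 to 34732123, hg19, plus strand) read -0.05 and -0.16 in WT, 0.30 and 0.29 in WT+NU6102, -0.03 and -0.04 in CDK2-/- and 0.09 and 0.05 in R50 cells. WT+NU6102 arrays were the highest, and the other arrays lay between -0.16 and 0.09. Neither CDK2-/- (log2 fold change 0.07, adjusted p = 0.381, 95% interval -0.06 to 0.20) nor R50 (0.18, adjusted p = 0.0704, 95% interval 0.04 to 0.31) passed against WT, although R50 did with normexp background correction (0.20, adjusted p = 0.0345) and with a trended prior (adjusted p = 0.047). R50 minus CDK2-/- was 0.11, with a 95% interval from -0.03 to 0.24.

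IFNAR2 has 3 probes on chromosome 21 (hg19, plus strand). The brightest (34635002 to 34635061) read 1.83 and 1.81 in WT, 1.91 and 1.92 in WT+NU6102, 1.72 and 1.74 in CDK2-/- and 1.85 and 1.81 in R50 cells. Its difference from WT was 0.10 in WT+NU6102 and -0.09 in CDK2-/- cells (adjusted p = 0.178). For R50 it was 0.01 (adjusted p = 0.914, 95% interval -0.10 to 0.12). A second probe (34625061 to 34625120) read 0.49 and 0.50 in WT, 0.74 and 0.67 in WT+NU6102, 0.19 and 0.23 in CDK2-/- and 0.47 and 0.42 in R50 cells. On that probe CDK2-/- was lower than WT (log2 fold change -0.28, adjusted p = 0.0108), a call lost in 5 of 17 other settings, among them the fits without WT replicate 1 (adjusted p = 0.0513), WT replicate 2 (0.0544) or CDK2-/- replicate 1 (0.0606). R50 was higher than CDK2-/- there (log2 fold change 0.23, adjusted p = 0.0187), a call lost in 6 of 18, among them the fit within the slide (adjusted p = 0.0644) and those without either CDK2-/- array or R50 replicate 1 (0.0613 to 0.0933). Both probes were thus lower in CDK2-/- cells in sign, but the call was made on the dimmer probe alone. The probe for the other transcript (34635969 to 34636028) read between -4.78 and -4.07 and was above background on 1 array of each group.

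SOCS1, the feedback inhibitor of JAK1 and TYK2, was highest in CDK2-/- and lowest in R50 cells. Its probe (chromosome 16, 11348384 to 11348443, hg19, minus strand) read -1.31 and -1.34 in WT, -1.07 and -1.13 in WT+NU6102, -0.78 and -0.63 in CDK2-/- and -1.60 and -1.88 in R50 cells. WT+NU6102 and WT lay between, in that order from high to low, and no groups overlapped. SOCS1 was 1.54-fold higher in CDK2-/- than in WT (log2 fold change 0.62, SE 0.104, adjusted p = 0.00879), a call lost without CDK2-/- replicate 2 (adjusted p = 0.0506) and with the methods' t-test (0.0814). It was 2.05-fold lower in R50 than in CDK2-/- (log2 fold change -1.03, SE 0.104, adjusted p = 0.00138). The difference of R50 from WT, -0.41 (adjusted p = 0.0414), was lost in 10 of 17 other settings, including the fits without each array other than R50 replicate 1 (adjusted p between 0.0623 and 0.153). WT+NU6102 minus WT was 0.22 (SE 0.104).

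Counted over the 9 genes by their brightest probe, 7 were called in CDK2-/- against WT at an adjusted p under 0.05, TYK2 and SOCS1 higher and STAT2, IRF9, IRF1, IRF7 and JAK1 lower. Of all genes tested 31.4% were called in that comparison. The median log2 fold change of the members was -0.48 and that of all genes 0.02. In R50 against WT, 3 members were called, all lower (IRF1, IRF7 and SOCS1), where 23.4% of all genes were called, and the members' median was -0.07 beside -0.04. In R50 against CDK2-/-, 7 members were called (STAT2, IRF9, IRF1, IRF7 and JAK1 higher, TYK2 and SOCS1 lower), where 35.2% of all genes were called, and the medians were 0.49 and -0.06. These are the same 7 genes as in CDK2-/- against WT, each with the opposite sign, and both comparisons use the CDK2-/- arrays. With a log2 fold change of at least 1 also required, the members called were IRF9 and IRF7 in CDK2-/- against WT (background 4.68%), none in R50 against WT (2.63%) and IRF9, IRF7 and SOCS1 in R50 against CDK2-/- (5.10%). In WT+NU6102 against WT, 6 members passed beside 45.4% of all genes, and nothing is read from that count. The paper's methods name an unpaired t-test for group differences in general and an ANOVA for the arrays. With that t-test, adjusted by Benjamini-Hochberg, IRF9, IRF1 and IRF7 were the members called both in CDK2-/- against WT and in R50 against CDK2-/-. None was called in R50 against WT, where the t-test called 13 of all probes (3 members at an unadjusted p under 0.05, and 3 called by limma).

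The genes next to the members in the pathway were taken from lists of ligands, other receptors, other JAK and STAT genes, other IRF genes and negative regulators. Of the 66 genes on the array 48 were tested. In CDK2-/- against WT 6 were higher and 15 lower, beside 31.4% of all genes called in either direction. In R50 against WT 4 were higher and 10 lower, beside 23.4%. The lower genes in both comparisons include IL28B and IL29, which were tested only because both WT arrays were well above background. For these genes a lower signal was thus favoured in advance. The median log2 fold changes in CDK2-/-, R50 and WT+NU6102 against WT were -0.04, 0.02 and -0.02, beside 0.02, -0.04 and 0.04 over all genes. The 13 other receptors, among them IFNGR1, IL28RA and IL6ST, had 3 higher and 2 lower in CDK2-/- and 1 in each direction in R50 cells against WT.

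Of the 17 interferon genes on the array 4 could be tested. The probes of IFNB1 and IFNG were above background on none of the 8 arrays. The λ interferons IL29, IL28A and IL28B, which signal through JAK1, TYK2 and ISGF3, had their highest signal in WT cells. IL28A read -0.21 and -0.24 in WT, -1.57 and -1.63 in WT+NU6102, -1.85 and -2.02 in CDK2-/- and -1.27 and -1.11 in R50 cells. It was lower in CDK2-/- than in WT (log2 fold change -1.71, adjusted p = 0.000168) and in R50 than in WT (log2 fold change -0.97, adjusted p = 0.00192). IL28B and IL29 were tested only because both WT arrays were well above background. A lower signal in the other groups was thus favoured in advance, and no p-values are given for these genes. IL28B was well above background on the WT arrays alone and was at least 2.15-fold lower in CDK2-/- and at least 1.99-fold lower in R50 cells. Here the bound holds for the processed signal and sets the WT mean against the dimmest signal that still counts as above background, although some probes not above background read higher than that. IL29 was well above background on both WT arrays and 1 R50 array, and was at least 5.21-fold lower in CDK2-/- than in WT. With normexp, which compresses dim signals by its offset, all these differences were smaller than the bounds, with log2 fold changes of -0.58 and -0.44 for IL28B in CDK2-/- and R50 and -0.99 for IL29 in CDK2-/-. IFNA4, the type I interferon that could be tested, was above background on all arrays. Its log2 fold change against WT was 0.41 in WT+NU6102. Neither CDK2-/- (-0.39, adjusted p = 0.0541) nor R50 (0.02, adjusted p = 0.928) passed against WT, and IFNA4 was higher in R50 than in CDK2-/- cells (0.41, adjusted p = 0.0435). IL28A and IL28B are near-identical copies, so a probe for either may also read the other.

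Among the 7 other JAK and STAT genes tested, 1 was called higher and 2 lower in CDK2-/- against WT, beside 31.4% of all genes. STAT3 was 1 of the lower genes (log2 fold change -0.71, adjusted p = 0.00371), and its difference from WT was -0.26 in WT+NU6102. STAT4, STAT6, STAT5B and JAK3 had lower signal in WT+NU6102 than in WT cells, and none of them was called lower in CDK2-/- cells. STAT4 and JAK3 have 2 probes each on the array, and the values given are those of the brightest tested probe. STAT6, which serves interleukin 4, read 2.78 and 2.83 in WT, 1.48 and 1.24 in WT+NU6102, 3.42 and 3.37 in CDK2-/- and 3.12 and 3.04 in R50 cells. It was higher in CDK2-/- than in WT (log2 fold change 0.59, adjusted p = 0.00604). The STAT4 difference from WT was -1.66 in WT+NU6102 and -0.01 in CDK2-/- cells (adjusted p = 0.974), and for R50 it was 0.43 (adjusted p = 0.0716). JAK3 differed by -1.01 in WT+NU6102 and 0.06 in CDK2-/- (adjusted p = 0.358) and was higher in R50 than in WT (log2 fold change 0.46, adjusted p = 0.00284). STAT5B passed against WT neither for CDK2-/- (0.17, adjusted p = 0.578) nor for R50 (-0.19, adjusted p = 0.548). It differed by -1.05 in WT+NU6102, where 1 of its 2 arrays was not well above background and normexp gave -0.43.

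Of 7 other IRF genes none was higher and 2, IRF2 and IRF2BPL, were lower in CDK2-/- than in WT cells. In that comparison 31.4% of all genes were called in either direction. IRF2, a repressor that competes with IRF1, was lower in CDK2-/- than in WT (log2 fold change -0.74, adjusted p = 0.00069) and higher in R50 than in CDK2-/- (log2 fold change 0.81, adjusted p = 0.000445), and R50 minus WT was 0.08 (adjusted p = 0.382). With normexp the IRF2 differences were -0.34 and 0.45 in the first 2 of these comparisons, both still called. IRF2BPL had values of -0.75 (adjusted p = 0.000402), 0.76 (adjusted p = 0.00033) and 0.01 (adjusted p = 0.86) in the same comparisons. Of 17 negative regulators 2 were higher and 6 lower in CDK2-/- than in WT, beside the same 31.4% of all genes. USP18, an interferon-induced inhibitor that acts at IFNAR2, read 1.57 and 1.41 in WT, 0.43 and 0.44 in WT+NU6102, -0.16 and -0.20 in CDK2-/- and 0.55 and 0.69 in R50 cells. It was lower than WT in CDK2-/- (log2 fold change -1.67, adjusted p = 0.000145) and R50 cells (log2 fold change -0.88, adjusted p = 0.00209). CISH, a SOCS family member, had differences from WT of 0.76 in WT+NU6102 and 0.22 in CDK2-/- cells (adjusted p = 0.0535), and of -0.07 for R50 (adjusted p = 0.5).

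**Figure D3:**
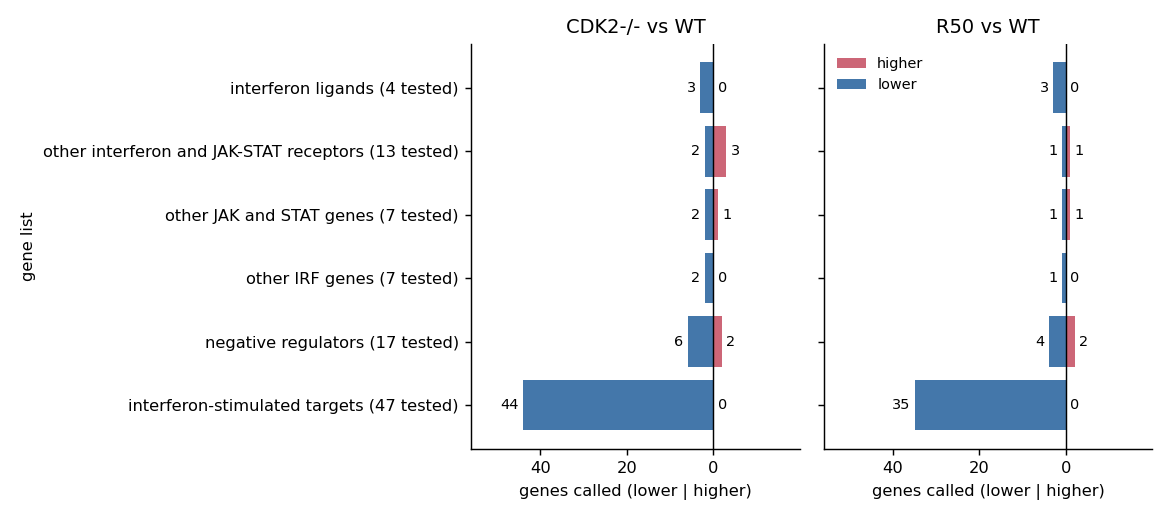
Number of genes called at an adjusted p under 0.05 in each list (vertical axis), drawn to the left where lower and to the right where higher, for CDK2-/- and R50 cells against WT. Of 47 interferon-stimulated targets 44 are lower in CDK2-/- and 35 in R50 cells and none is higher, while the lists of receptors and regulators go both ways. The ligands include IL28B and IL29, which were tested only through their WT arrays.

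The targets of ISGF3 were followed with a list of 49 interferon-stimulated genes, 47 of them tested. In CDK2-/- against WT, 44 were lower and none higher, with a median log2 fold change of -1.93 (all genes 0.02). In R50 against WT, 35 were lower and none higher, with a median of -0.79, and in R50 against CDK2-/-, 40 were higher and 1, ISG20, was lower, with a median of 1.14. In WT+NU6102 against WT, the comparison that chose IRF9, the median was -1.81. Of all genes tested, 14.7% were called lower in CDK2-/- and 13.0% in R50 against WT, and 15.0% higher in R50 than in CDK2-/-. The list was drawn up with the fall of interferon genes in these data known, so its direction is no independent evidence. EPSTI1 was well above background on 2 arrays and RTP4 on 3, and both had their highest signal in WT. For such targets a lower signal in the other groups was also favoured in advance by the filter. Among the 40 targets with a RefSeq promoter window, 31 (77.5%) held the ISRE core and 13 (32.5%) the GAS. A target was counted if any of its windows matched. The shares over all promoters, 3.57% and 7.66%, were counted per window and are thus in another unit.

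IFITM1, an antiviral membrane protein, read 5.73 and 5.62 in WT, 2.98 and 2.74 in WT+NU6102, -0.77 and -0.61 in CDK2-/- and 4.63 and 4.49 in R50 cells. Its log2 fold change in CDK2-/- against WT was -6.37 (adjusted p = 1.3e-05). BST2 (tetherin) and IFI27 had values of -6.20 (adjusted p = 3.25e-05) and -6.00 (adjusted p = 1.3e-05) there. IFITM1, BST2 and SAMD9L have 2 probes each on the array, and the values given are those of the brightest tested probe. IFI44 was not well above background in CDK2-/- cells and was at least 63.0-fold lower than in WT (adjusted p = 2.01e-05), with WT arrays at 0.93 and 0.80. IFI44L and SAMD9L were not well above background in CDK2-/- or WT+NU6102 cells and were at least 12.4-fold (adjusted p = 4.59e-05) and 11.4-fold (adjusted p = 0.00109) lower in CDK2-/- than in WT. With normexp the log2 fold changes in CDK2-/- were -4.02 for IFI44, -2.24 for IFI44L and -2.00 for SAMD9L, smaller than these bounds on the processed signal. In R50 cells IFI27 (log2 fold change -0.31, adjusted p = 0.0782) and SAMD9L (-0.52, adjusted p = 0.451) did not pass against WT, whereas IFI44L did (-2.89, adjusted p = 0.000694). With normexp all 3 passed, at -0.33, -0.34 and -1.59.

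**Figure D4:**
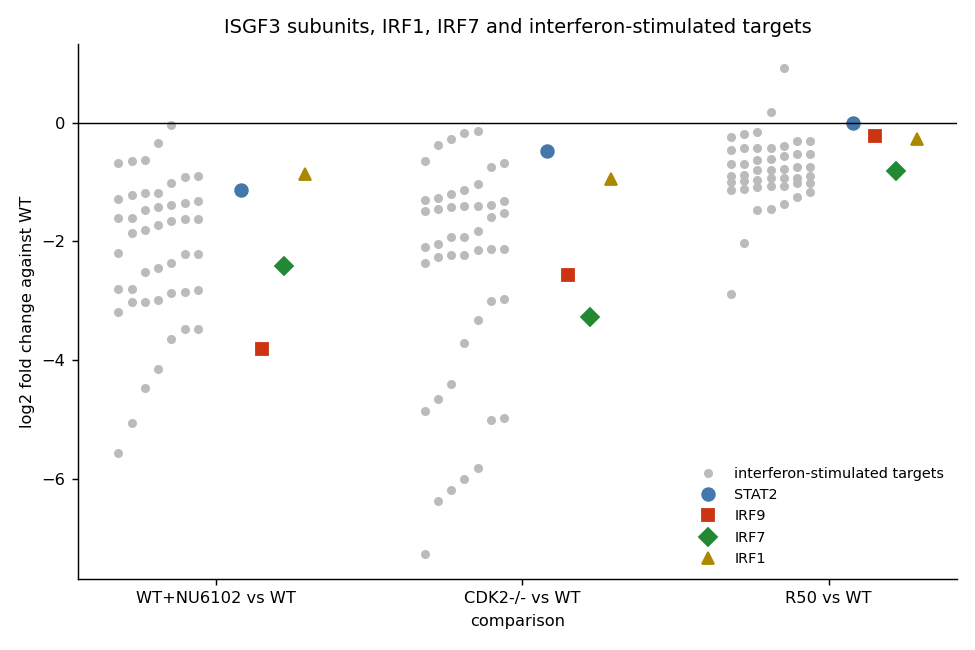
Log2 fold change against WT (vertical axis) in 3 comparisons (horizontal axis) for the 47 interferon-stimulated targets (grey points) and, as larger symbols, STAT2, IRF9, IRF7 and IRF1. In CDK2-/- cells IRF7 lies at -3.27 and IRF9 at -2.56, while in R50 cells STAT2 lies at 0.00 and IRF9 at -0.23. Values of targets below background in a group are measured signals and no lower bounds.

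The genes with the pattern most like IRF9 were sought over 18610 candidates, each above background on every array. Signal was set to 0 at the WT mean, and the root mean square difference from IRF9 over the 8 arrays was ranked. These arrays include those of WT and WT+NU6102, so the ranking rests in part on the difference that chose IRF9. PARP9, which forms a complex with DTX3L and is interferon-induced, came first with 0.42 (Pearson's r = 0.977 over 8 arrays that form 4 pairs of duplicates). It was followed by SH2D6 (0.51, r = 0.965), LGALS9C (0.58, r = 0.942), KLRC3 (0.59, r = 0.976) and the antiviral GTPase MX1 (0.61, r = 0.957). LGALS9C and KLRC3 have near-identical copies, so their probes may read those too. PARP9 read 1.04 and 0.92 in WT, -2.70 and -2.62 in WT+NU6102, -2.06 and -1.91 in CDK2-/- and 0.05 and 0.04 in R50 cells. LGALS9C was the only one of the 5 without a lower mean in R50 than in WT, with a difference of 0.08.

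**Figure D5:**
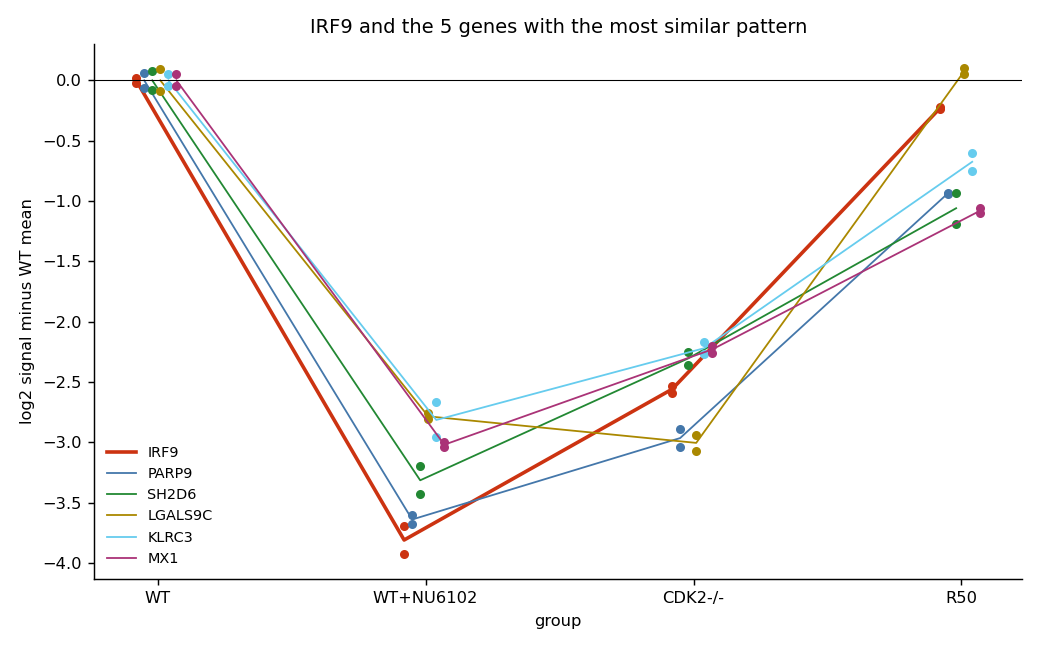
Log2 signal less the WT mean (vertical axis) of IRF9 (thick line) and the 5 genes most like it, by group (horizontal axis), with a point per array and lines through group means. All 6 are lowest in WT+NU6102 or CDK2-/- cells, and in R50 cells they lie between -1.19 and 0.10.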

How the data were processed

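RNA of 4 groups of HCT-116 cells was Cy3-labelled and run singly on Agilent SurePrint G3 arrays, 2 per group. The authors deposited scanner files with the intensity of each spot from Agilent Feature Extraction 11.5.1.1 (per the submitters' processing notes), background-subtracted and not normalized between arrays, and processed log2 values made in GeneSpring GX, which were used as an alternative. Each array had 32376 to 36206 spots well above background, none was saturated, and the number of arrays limits precision. The array files of WT and WT+NU6102 give probe positions on hg19; no hg19 annotation was used here.

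In R 4.3.3 control and outlier spots were dropped, log2 signal was centred on the 75th percentile of each array and spots of a probe were averaged. A probe was tested if any group had it well above background on both its arrays (28677 of 50599). Limma 3.58.1 fitted all groups with empirical Bayes moderation, with 4 residual and 1.57 prior degrees of freedom. P-values were adjusted by Benjamini-Hochberg over all tested probes per contrast and called under 0.05. All tests are two-sided. P-values measure the spread between replicates of 1 line each. A gene is represented by its tested probe with the highest mean. The fit was tested on simulated data.

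Named genes are the members, up to 12 called pathway genes and 6 targets with the largest changes against WT, the 5 genes most like IRF9 and CDK2; 1 of the pathway genes is not reported here. Other names were chosen after their values were seen. The members and lists were chosen with earlier results of these data known. Same-numbered replicates of different groups did not deviate together (r between -0.028 and 0.0452), so samples were not paired. Leukocyte, fibroblast and endothelial markers summed to at most 1.1 on the linear normalized scale, against 477 to 751 for epithelial markers. Figures were drawn with matplotlib 3.10.9.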

Additional observations from a re-analysis of the deposited data

How the results depend on the processing

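Among the members' log2 fold changes, no called value changed sign under any alternative (background correction by normexp, quantile normalization, the authors' processed values, both other filters on dim probes, a replicate block, a trended prior, a slide block, fits within a slide, the methods' t-test and leaving out each array). Requiring a log2 fold change of at least 1 left 3, 2, 0 and 3 members in WT+NU6102, CDK2-/- and R50 against WT and R50 against CDK2-/-, 9, 5 and 2 pathway genes in the first 3, and 13 and 26 interferon-stimulated targets in the last 2. The 2 pathway genes left in R50 against WT were IL28B and IL29, for which the filter favoured a lower signal in advance. For R50 against WT, no filter on dim probes gave 1 member and 7 pathway genes, and a trended prior 5 members. The methods' t-test after Benjamini-Hochberg gave 3 members, 7 pathway genes and 28 targets in CDK2-/- against WT, 19 pathway genes in WT+NU6102 against WT, and 3 members and 23 targets in R50 against CDK2-/-. In R50 against WT it gave 0 of each, where it called 13 of all probes; at an unadjusted p under 0.05 it had 3 members, 16 pathway genes and 39 targets, and limma called 3, 14 and 35. Leaving out each array gave 5 to 6, 6 to 7, 1 to 3 and 7 to 7 members in the same 4 comparisons, 25 to 34, 12 to 22 and 7 to 11 pathway genes, and 44 to 46, 39 to 43, 30 to 37 and 35 to 41 targets. The single member in R50 against WT came without WT replicate 1, WT replicate 2 or R50 replicate 2. Pathway genes fell to 12 in CDK2-/- without CDK2-/- replicate 1, and in R50 to 7 without WT replicate 1, WT replicate 2 or R50 replicate 2 and to 8 without R50 replicate 1. The replicate block gave 6, 7, 2 and 7 members, so it changed no count by over 1.5 times. The slide as a random block, whose correlation was 0, repeated the main fit with 6, 7, 3 and 7. Each group lay on 1 slide, so the slide block could not show an effect of the slide. With the replicate block, SOCS1 in R50 against WT lost its call (adjusted p = 0.0642). With the t-test, IL29, IL28B, STAT6, IRF2 and SAMD9L lost theirs in CDK2-/- against WT. The filter had favoured a lower signal of IL29 and IL28B in advance, so nothing is read from their calls in either test. In WT+NU6102 against WT, which chose IRF9, the counts support nothing. The causes of these shifts were not tested.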
